A study of Mus musculus with 6 samples.

Results

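The genes described here are 10 markers of later pain, itch and C-fibre sensory neurons: Calca, Calcb, Tac1, Gal, Sst, Nppb, Mrgprd, Oprm1, Th and Adcyap1. They were chosen by name from 21883 RefSeq protein-coding genes of GRCm38 and read in neurons labelled as another lineage, the TrkC proprioceptive neurons of the mouse dorsal root ganglion at E11.5, in mid-gestation. Cells carrying the label Runx3-BAC-GFP-CB6 for their genotype were sorted for GFP, and 50000 cells went into each preparation, so all groups share the reporter, whose GFP follows the regulatory region of Runx3 carried on the bacterial artificial chromosome. The 6 samples are 2 of ATAC-seq, which maps open chromatin, 2 of ChIP-seq for H3K27ac, the acetylation of histone H3 at lysine 27 that is found at promoters and enhancers in use, and 2 of input DNA. The values are 1 consensus list of peak positions per assay, with 43739 ATAC and 19928 H3K27ac peaks, so there is no signal height, no spread between replicates and no depth per sample. A region open in few of the sorted cells and a region weakly open in all of them cannot be told apart.

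Neuropeptides are short secreted peptides cut from longer precursors, stored in dense-core vesicles and released beside the fast transmitter glutamate. In the mature ganglion, pain and itch neurons are known for the calcitonin gene-related peptides (Calca, Calcb), substance P (Tac1), galanin, somatostatin and natriuretic peptide B, and subsets carry the receptor Mrgprd, the mu opioid receptor Oprm1 or, among C-fibre touch neurons, tyrosine hydroxylase (Th). Proprioceptors, which sense muscle stretch, instead keep TrkC and Runx3. The comparison of both peak lists around these genes asks what chromatin state nociceptor genes have in the TrkC lineage soon after its neurons are born.

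The promoters that were open are shown first. They belong to 4 of the 9 genes with a listed promoter, and none of them overlapped H3K27ac. RefSeq promoter windows of 300 bases, from 250 before to 50 after a listed start, matched 9 of the 10 genes, all but Calcb. Capitals mark the bases covered by the ATAC peak, on the gene's strand, 5′ to 3′, build GRCm38.p6. They come from Calca (chr7:114636308-114636607, minus strand), Tac1 (chr6:7554811-7555110, plus strand), Gal (chr19:3414495-3414794, minus strand) and the downstream start of Oprm1 (chr10:6788326-6788625, plus strand).
Calca: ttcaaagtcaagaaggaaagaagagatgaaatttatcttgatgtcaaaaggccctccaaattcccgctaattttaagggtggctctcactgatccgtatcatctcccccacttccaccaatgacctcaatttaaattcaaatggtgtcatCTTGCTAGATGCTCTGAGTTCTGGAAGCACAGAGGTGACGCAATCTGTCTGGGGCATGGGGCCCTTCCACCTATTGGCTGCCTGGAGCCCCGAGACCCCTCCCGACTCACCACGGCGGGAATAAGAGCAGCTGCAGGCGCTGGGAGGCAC
Tac1: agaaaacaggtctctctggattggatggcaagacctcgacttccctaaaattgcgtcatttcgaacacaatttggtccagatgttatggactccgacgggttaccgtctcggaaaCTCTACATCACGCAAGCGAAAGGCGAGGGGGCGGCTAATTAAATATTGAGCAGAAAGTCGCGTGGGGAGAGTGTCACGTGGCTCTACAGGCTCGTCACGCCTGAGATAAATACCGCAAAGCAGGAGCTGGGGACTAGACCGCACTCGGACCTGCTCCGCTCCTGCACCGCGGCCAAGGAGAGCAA
Gal: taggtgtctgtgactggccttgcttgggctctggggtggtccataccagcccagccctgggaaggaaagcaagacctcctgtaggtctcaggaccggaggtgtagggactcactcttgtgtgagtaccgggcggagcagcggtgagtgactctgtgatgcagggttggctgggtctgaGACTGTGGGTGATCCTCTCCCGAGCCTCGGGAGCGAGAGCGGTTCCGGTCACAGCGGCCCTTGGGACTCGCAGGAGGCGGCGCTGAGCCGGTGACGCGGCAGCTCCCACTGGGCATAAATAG
Oprm1: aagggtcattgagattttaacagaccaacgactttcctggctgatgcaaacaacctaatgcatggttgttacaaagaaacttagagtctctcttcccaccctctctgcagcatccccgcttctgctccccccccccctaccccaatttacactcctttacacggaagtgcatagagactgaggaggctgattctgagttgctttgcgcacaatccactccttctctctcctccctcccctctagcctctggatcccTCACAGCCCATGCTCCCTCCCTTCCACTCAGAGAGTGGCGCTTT
In all 4 windows the open part lay at the 3′ side: 150 bases in Calca, 185 in Tac1, 122 in Gal and 44 in Oprm1. In Calca, Tac1 and Gal it included the listed start itself, whereas the Oprm1 peak began 6 bp after it.

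A minority of these genes was open at an annotated end and 1 was acetylated there. Within 1 kb of an annotated gene end, 3 of the 10 genes held an ATAC peak (Calca, Tac1 and Gal), where 60.4% of all protein-coding genes did. An H3K27ac peak lay within 1 kb of an end in 1 of the 10 (Nppb, past its 3′ end), against 49.3% of all genes, and no gene of the 10 had both marks there, against 47.8%. Read at the listed starts, 4 of 9 genes had a promoter window overlapping ATAC (57.6% of the 17491 genes of the table) and 0 of 9 had one overlapping H3K27ac (46.9%). Of all genes with an open promoter window, 77.6% also had an acetylated one. With windows of 2.5 kb the counts were 5 for ATAC and 3 for H3K27ac, and with 0.5 kb they were 3 and 0. The shares are descriptions of 10 genes chosen by name, and no test was made on them.

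**Figure D1:**
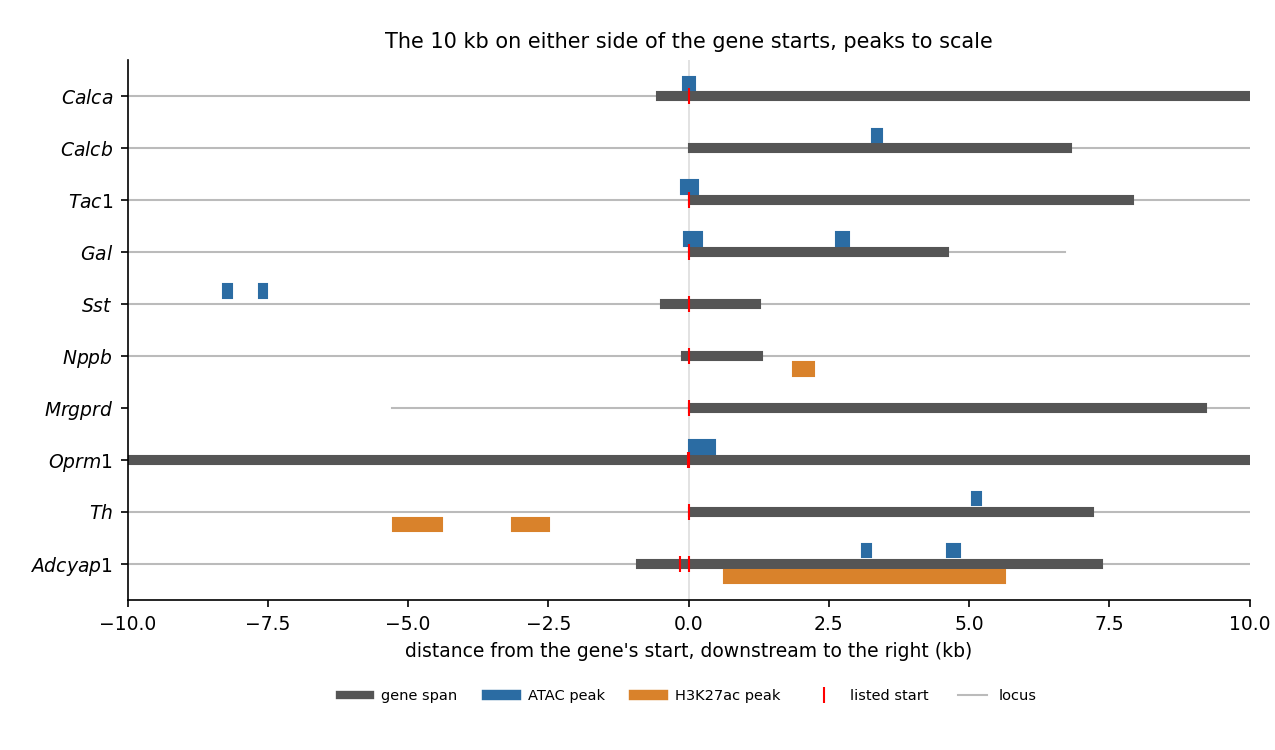
Peaks within 10 kb of each gene's start (x axis, kb, downstream to the right), 1 row per gene; blue boxes above the line are ATAC peaks, orange boxes below it H3K27ac peaks, dark bars the gene span and red ticks the listed starts. Zero is the most downstream listed start, for Calcb the lower-coordinate end. ATAC peaks sit on the starts of Calca, Tac1 and Gal and 6 bp after that of Oprm1, with no orange box near them. Adcyap1 alone has a broad H3K27ac peak.

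Every one of the wider loci held open chromatin, but peaks of both lists were sparse for the length of the loci. A locus reached out in both directions to the next protein-coding gene, at most 100 kb past the gene itself. Where that neighbour overlapped, as Ipcef1 does the 3′ part of Oprm1, the locus still ran to 1 kb past the gene's end. Loci measured from 47.1 kb (Gal) to 381 kb (Oprm1), with a median of 145 kb against 67.5 kb over all genes. All 10 loci held an ATAC peak, against 79.7% of all genes, whose loci are shorter in the median. An H3K27ac peak was held by 4, against 63.9% of all genes and 64.0% of the 12760 genes whose loci are as long as these. Together they held 24 ATAC peaks, 3 at a gene end, 8 inside a gene and 13 in the flanks, and 5 H3K27ac peaks. Per 100 kb of locus the median was 1.38 ATAC peaks, against 2.85 over all genes and 2.08 over the genes with loci as long. For H3K27ac it was 0, against 0.992 and 0.807.

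Most of the open elements stood alone, as did most ATAC peaks of the whole list. Of the 24 ATAC peaks, 3 overlapped H3K27ac by at least 1 bp (12.5%, 95% Wilson interval 4.34 to 31.0, counting error only), against 39.6% of 43652 ATAC peaks on the assembled chromosomes. By position these were 0 of 3 at gene ends, 2 of 8 inside genes and 1 of 13 in flanks. Over the whole list, overlap was found for 72.8% of ATAC peaks at gene ends, 26.6% within gene bodies and 16.6% between genes. There a peak at the end of any gene counts as a gene end, whereas in the loci only the ends of the 10 genes count. Most of the 24 peaks lay inside genes or in flanks, where overlap is less common over the whole list. An acetylated ATAC peak was thus counted in 2 of the 10 loci (61.5% of all genes), those of Adcyap1 and Calca. Both overlaps inside a gene belong to Adcyap1. The overlap in a flank is the peak at the end of Cyp2r1, the gene that bounds the Calca locus, and only 66 of its 594 bp lie in the locus. Counting peaks by their midpoint, 2 of 23 (8.70%) overlapped.

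**Figure D2:**
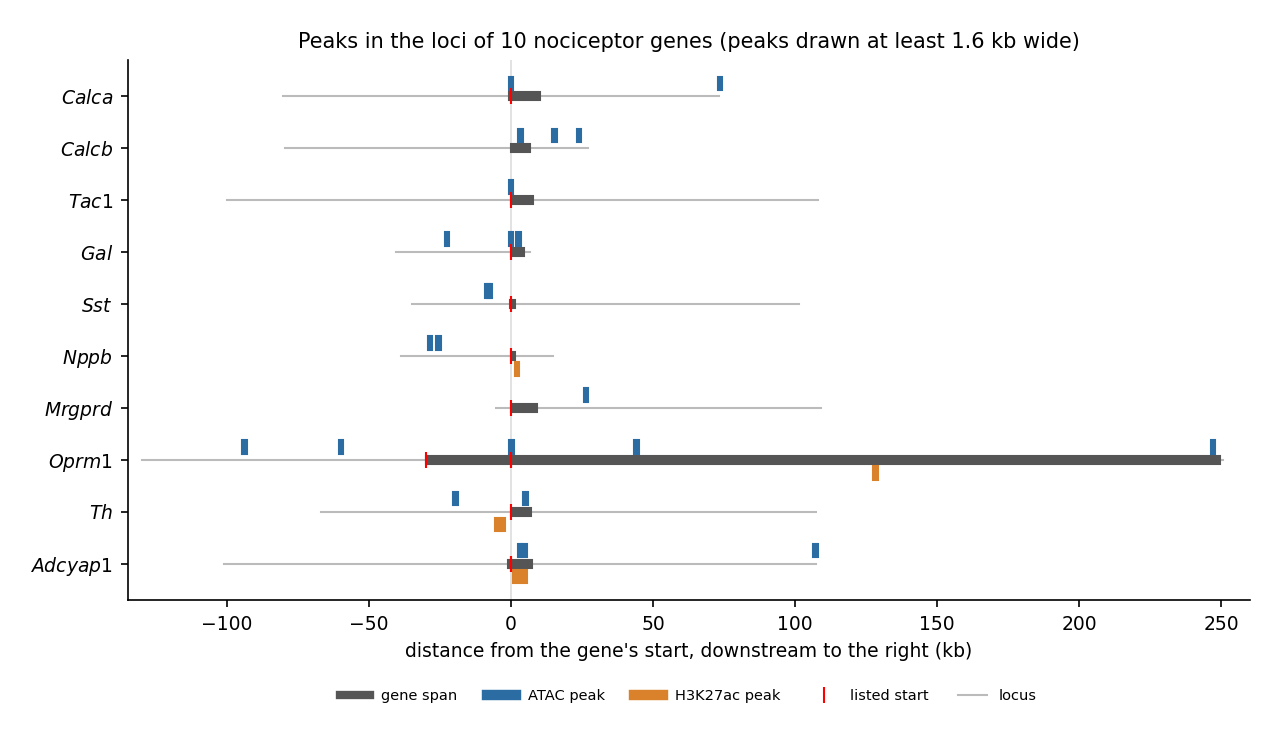
Peaks in the 10 loci by distance from each gene's start (x axis, kb, downstream to the right), with ATAC peaks in blue above each line, H3K27ac peaks in orange below it and the gene span as a dark bar; peaks are drawn at least 1.6 kb wide to be visible. The 24 ATAC peaks are spread over all 10 loci, and the 5 H3K27ac peaks fall in 4 of them.

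Adcyap1 was the exception among the peptide genes. It encodes PACAP, a peptide that signals through Gs-coupled receptors and is found in sensory neurons. An H3K27ac peak of 5001 bp (chr17:93199801-93204801) began 633 bp after the more downstream of 2 listed starts and covered 60.3% of the gene. In the H3K27ac list, 220 of 19924 peaks (1.1%) were at least as wide, and the list median was 1036 bp. Inside it lay 2 ATAC peaks of 159 bp (chr17:93202255-93202413) and 228 bp (chr17:93203784-93204011), 3.09 and 4.62 kb after that start. The nearest protein-coding neighbour past the 3′ end, Mettl4, is 1520 kb away, and no other H3K27ac peak lay in the 208 kb locus. Another ATAC peak, of 327 bp, straddled the far boundary of the locus, 99.7 kb past the gene.

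Neither promoter window of Adcyap1 overlapped an ATAC peak. The open region of 159 bp instead covers the listed start of Gm32465 (chr17:93194341-93202261), a long non-coding RNA annotated on the opposite strand and overlapping the first part of Adcyap1. Neither assay records a strand, so the marks cannot be given to one of these transcripts. Its promoter window (chr17:93202212-93202511, minus strand) is printed with the ATAC-covered 159 bases in capitals, because it is the acetylated open element of this locus that lies on a listed start.
Gm32465: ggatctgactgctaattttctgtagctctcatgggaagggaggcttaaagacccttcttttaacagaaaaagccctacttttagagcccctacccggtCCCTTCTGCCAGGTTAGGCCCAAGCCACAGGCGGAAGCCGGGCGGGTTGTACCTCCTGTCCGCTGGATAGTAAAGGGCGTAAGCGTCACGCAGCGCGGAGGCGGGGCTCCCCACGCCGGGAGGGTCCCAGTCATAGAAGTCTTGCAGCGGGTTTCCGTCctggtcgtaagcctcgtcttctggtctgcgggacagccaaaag
That window holds 18 CG dinucleotides, against 7 and 10 in the windows of Adcyap1 itself.

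The calcitonin gene-related peptides, the vasodilator peptides of sensory fibres, come from neighbouring genes. Calca held an ATAC peak of 217 bp on its start (chr7:114636241-114636457), which is at the median width of the ATAC list. Calcb held none at either end and a single one of 169 bp inside the gene (chr7:114719834-114720002), 3.28 kb from the nearer end. The 79.6 kb between both genes held no peak of either list. Beyond Calcb, 2 narrow ATAC peaks of 107 and 110 bp lay 8.48 and 17.1 kb away, on the way to Insc. The H3K27ac peak nearest to the start of Calca was that at Cyp2r1, 73.4 kb away, and for Calcb it lay just beyond the near end of Insc, 22.1 kb from the gene.

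Tac1 and Gal were open at the start and bare of acetylation over their loci. Tac1, the precursor gene of substance P and neurokinin A, had 1 ATAC peak in a locus of 208 kb, the 303 bp on its start (chr6:7554926-7555228). Its nearest H3K27ac peak was 138 kb from the start, farther than for 82.4% of genes or level with them. Gal, which encodes galanin, had the densest locus of the 10, with 3 ATAC peaks in 47.1 kb. They were 311 bp on the start (chr19:3414306-3414616), 244 bp inside the gene 2.62 kb after it and 106 bp in the flank 22.5 kb before it. The nearest H3K27ac peak to the Gal start was 89.1 kb away. In width the 3 peaks on the starts of Calca, Tac1 and Gal lay at percentiles 21.8, 38.2 and 40 of the ATAC peaks at gene ends, whose median was 417 bp where H3K27ac overlapped and 244 bp where it did not.

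Sst and Nppb had no open promoter. Sst encodes somatostatin, an inhibitory peptide of a set of itch neurons, and had 2 ATAC peaks 7.51 and 8.14 kb before its start, of 144 and 148 bp (chr16:23898351-23898494 and chr16:23898988-23899135). Nppb encodes natriuretic peptide B, a transmitter of the same itch neurons. Its H3K27ac peak of 369 bp (chr4:147987768-147988136) began 563 bp past the 3′ end of the gene, 1.87 kb after its start and 12586 bp from the nearest end of Nppa. It overlapped no ATAC peak and was narrower than 88.2% of H3K27ac peaks or level with them. The ATAC peaks of the locus, of 126 and 186 bp, lay 28.5 and 25.4 kb before the start.

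The receptors showed open chromatin at one gene and not at the other. Oprm1, the receptor of morphine and the endorphins, has 3 listed starts, an upstream one at its annotated end and 2 more inside the span, 29977 and 29983 bp from that end. The ATAC peak of 465 bp (chr10:6788582-6789046) lay at the inner pair and lies at percentile 85 of ATAC widths. The peak nearest to the upstream start was an ATAC peak of 104 bp, 29.9 kb before it. Further ATAC peaks of Oprm1 measured 98 to 168 bp. An H3K27ac peak of 476 bp (chr10:6916648-6917123) lay 128 kb after the inner starts, 83.9 kb from the nearest ATAC peak. The next protein-coding gene, Ipcef1, overlaps the 3′ part of Oprm1. This H3K27ac peak and the ATAC peak of 98 bp lie inside both genes and cannot be given to Oprm1 alone. Mrgprd, the beta-alanine receptor of non-peptidergic C fibres, had no peak of either list in the gene or within 1 kb. Its locus held 1 ATAC peak, 26.1 kb after the start and 16.9 kb past the gene, and that peak was broad, with 524 bp (chr7:145340933-145341456, percentile 89). No protein-coding gene lies beyond Mrgprd on that side of chromosome 7.

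Th had acetylation before its start without an open peak. Th encodes the enzyme that makes L-DOPA, the rate-limiting step of catecholamine synthesis. H3K27ac peaks of 671 bp (chr7:142902479-142903149) and 880 bp (chr7:142904386-142905265) lay 2.48 and 4.39 kb before the start, in the 66.8 kb between Th and Ascl2. Neither overlapped ATAC. The nearest ATAC peak, of 145 bp inside the gene 5.06 kb after the start, was 7.54 kb away. Of all H3K27ac peaks 68.9% overlapped ATAC, with 95.2% at gene ends, 45.3% within gene bodies and 44.1% between genes. In the 10 loci 1 of 5 did, the one at Adcyap1.

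**Figure D3:**
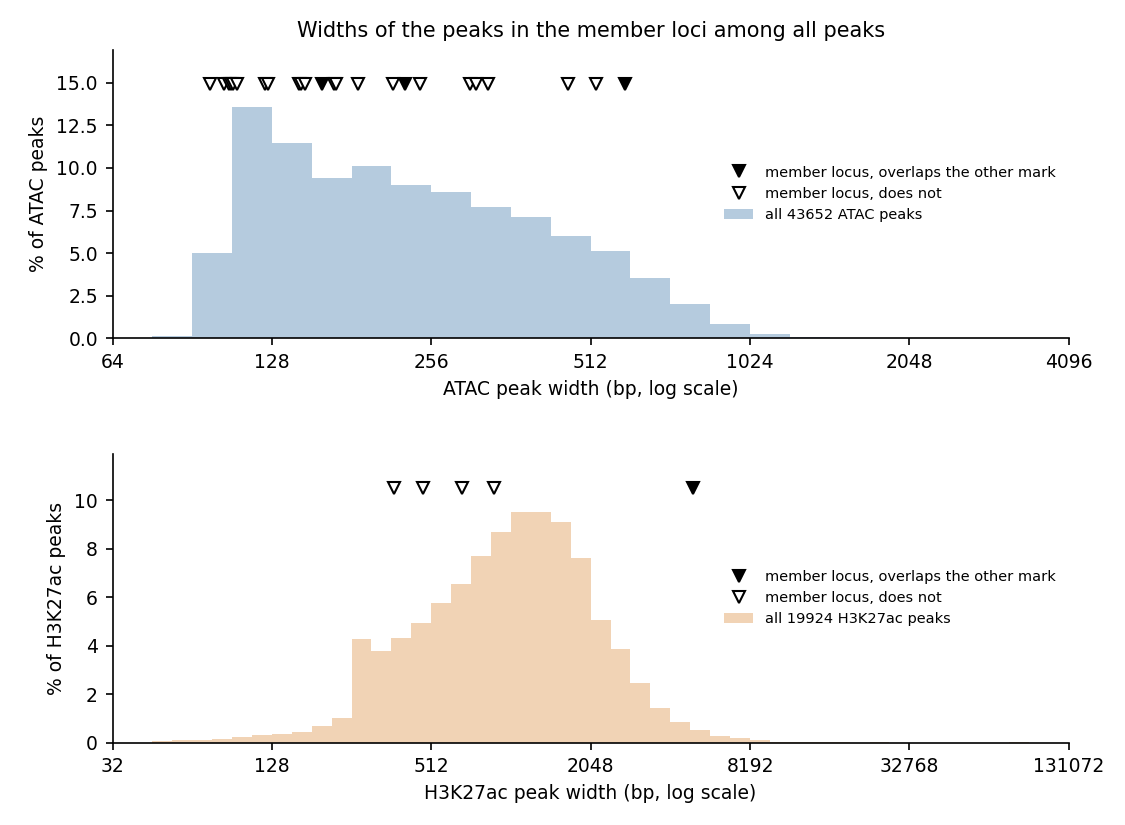
Width of each peak in the 10 loci (triangles; filled where the peak overlaps the other assay's peak) over the distribution of all ATAC peaks (upper panel) and all H3K27ac peaks (lower panel), in bp on a log axis. Of the 24 ATAC triangles 15 lie below the list median of 217 bp, and the H3K27ac peak of Adcyap1, 5001 bp, stands apart from the other 4 at 369 to 880 bp.

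The windows of 3 genes without an ATAC peak at the start are shown for their sequence, with each match to TGACG on either strand in capitals. The palindrome TGACGTCA, the cAMP response element known from the somatostatin promoter, appears as 1 run because it holds TGACG on both strands. They are those of Sst (chr16:23890795-23891094, minus strand), Th (chr7:142899946-142900245, minus strand) and the downstream start of Adcyap1 (chr17:93198918-93199217, plus strand).
Sst: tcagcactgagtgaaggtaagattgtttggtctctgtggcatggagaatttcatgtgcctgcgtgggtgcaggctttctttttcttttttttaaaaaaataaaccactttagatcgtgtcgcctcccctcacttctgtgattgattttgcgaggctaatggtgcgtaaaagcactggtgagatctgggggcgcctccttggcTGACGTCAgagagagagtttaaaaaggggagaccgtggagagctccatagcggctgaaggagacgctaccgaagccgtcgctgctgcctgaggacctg
Th: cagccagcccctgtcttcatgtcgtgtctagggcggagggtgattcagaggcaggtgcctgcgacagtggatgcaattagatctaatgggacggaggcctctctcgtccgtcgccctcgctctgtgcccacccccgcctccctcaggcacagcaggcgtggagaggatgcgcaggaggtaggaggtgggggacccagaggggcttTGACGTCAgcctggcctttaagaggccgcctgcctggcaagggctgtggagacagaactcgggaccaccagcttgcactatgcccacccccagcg
Adcyap1: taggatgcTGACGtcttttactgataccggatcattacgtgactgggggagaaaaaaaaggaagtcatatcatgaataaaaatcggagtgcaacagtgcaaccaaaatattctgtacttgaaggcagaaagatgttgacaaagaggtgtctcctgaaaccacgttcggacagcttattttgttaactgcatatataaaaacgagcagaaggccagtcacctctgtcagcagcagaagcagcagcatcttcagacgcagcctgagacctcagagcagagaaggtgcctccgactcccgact
TGACGTCA was found in 2 of the 9 genes with a window, Sst and Th, and in 2.23% of the 21262 promoters of protein-coding genes. TGACG, which lies within it, was found in 6 of 9 (Calca, Tac1, Gal, Sst, Th and Adcyap1) and in 23.6% of promoters. TGACGTCA was in 3.55% of promoters overlapping ATAC and in 0.652% of the rest, and the windows of Sst and Th are among the rest.

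Of the other motifs searched on both strands, CANNTG, the E-box, was in 6 of 9 (69.0% of promoters), GGGCGG, the GC box, in 3 of 9 (46.2%) and TATAAA in 2 of 9, Nppb and Adcyap1 (12.6%). TAATTA, a homeodomain core, was in Tac1 only (4.53% of promoters). TGTGGTT, a Runx core, and the palindrome of the Ebf factors were in none of the 9 (4.71% and 0.959% of promoters). These are matches of letters in 300 bases and not sites of binding.

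The promoter windows of these genes ranged widely in CG dinucleotides. Over all promoters the median was 23 CG where ATAC overlapped (quartiles 16 and 30) and 3 where it did not (quartiles 2 and 7). Tac1 had 22, Gal 16, Th 15, Sst 13, Calca 8, Nppb 7 and Mrgprd 2. Tac1 and Gal thus lay within the quartiles of open promoters. The windows at the inner starts of Oprm1 had 4 and 5, and the upstream one had 3. Open and closed windows thus interleaved. Calca and the Oprm1 window with 5 CG were open in the range of 5 to 9 CG, where 24.6% of promoters were, and the overlapping Oprm1 window with 4 CG in the range of 0 to 4, where 2.73% were. Th and Sst were not open, in ranges where 87.1% (15 to 19 CG) and 70.2% (10 to 14 CG) were.

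**Figure D4:**
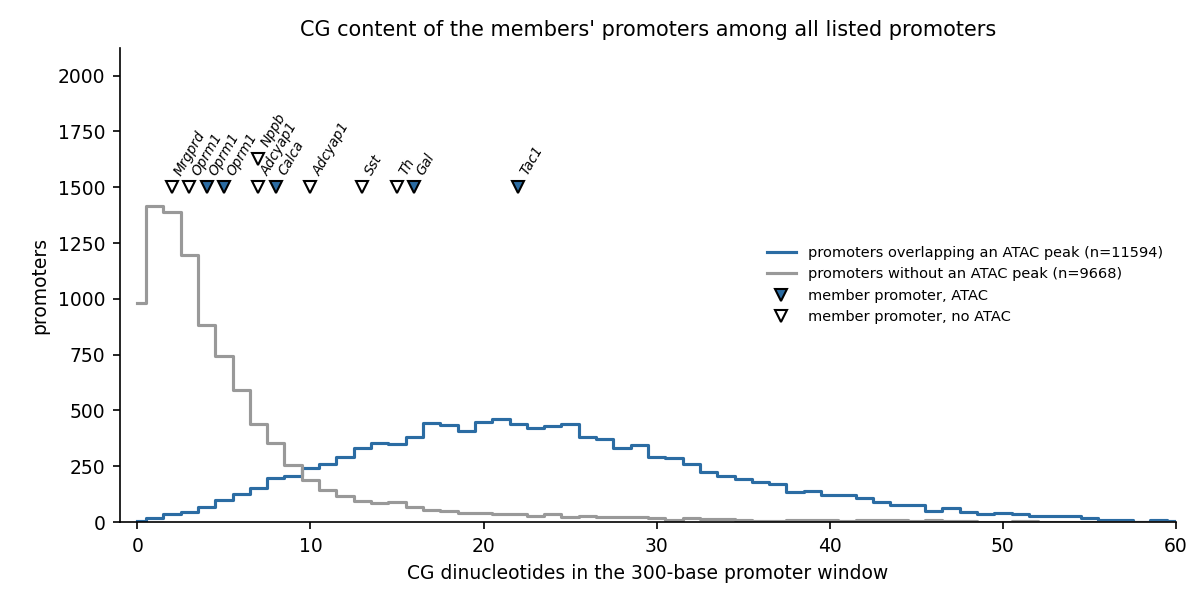
Number of CG dinucleotides in the 300-base promoter window (x axis) for promoters overlapping an ATAC peak (blue line) and without one (grey line), counts of promoters on the y axis. Triangles mark the windows of the 9 genes, blue where an ATAC peak overlaps; open and closed ones are mixed from 2 CG in Mrgprd to 22 in Tac1, all below the median of 23 of open promoters.

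Genes that act with these peptides were read the same way, in lists given without a test. Of 24 other nociceptor, itch and C-fibre genes, 12 were open at an end and 5 acetylated (60.4% and 49.3% of all genes). Among the acetylated ones were Prdm12, a transcriptional regulator of nociceptor development, Scn9a, P2rx3, an ATP-gated channel gene, and Gfra2. The sodium channel gene Scn9a had 1 H3K27ac peak at an end and 4 inside, and its relatives Scn10a and Scn11a had none at an end but 2 and 1 inside. The itch receptor genes Mrgpra3, Mrgprb4 and Mrgprb5 and the heat channel gene Trpv1 had no peak of either list anywhere in their loci. Counting the whole gene with 1 kb around it, 16 of the 24 held ATAC and 9 H3K27ac, against 7 and 3 of the 10 genes described here and 70.1% and 55.5% of all genes.

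Receptor genes of the same peptides were mostly open at an end, and few carried H3K27ac there. Of 16, 12 were open at an end, where 60.4% of all genes were open and 49.3% acetylated. Among the 12 were Tacr1 for substance P, Sstr2 for somatostatin, Galr1 for galanin and Npr1 for natriuretic peptides. Only Galr3 was acetylated at an end, by a peak of 227 bp, and it was not open there, nor were Galr2, Sstr3 and Npr3. Farther out, 8 of the 16 loci held H3K27ac (63.9% of all genes), with 2 peaks inside Npr3 and 2 in the flanks of Adcyap1r1, the PACAP receptor gene. Of 7 opioid receptors and ligands other than Oprm1, 6 were open at an end (60.4% of all genes), all but Pnoc. Only Pomc was acetylated there (49.3% of all genes). Of 11 other neuropeptide genes, 6 were open (Npy, Grp, Nmb, Nmu, Cck and Crh) and only Nmb was acetylated at an end. Their open share, 54.5%, was near the 60.4% of all genes.

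The shared machinery that cuts and stores peptides was open at an end more often than all genes, at 76.9% against 60.4%. Its acetylated share at an end, 53.8%, was near the 49.3% of all genes. Of 13 processing and dense-core vesicle genes, 10 were open at an end (60.4% of all genes) and 7 carried both marks there (47.8% of all genes): the convertase gene Pcsk2, the carboxypeptidase gene Cpe, the amidating enzyme gene Pam, the granin genes Chga and Chgb, Scg5 and Cadps. Furin, Scg3 and Cadps2 were not open at an end. All 13 had an ATAC peak in the gene or within 1 kb (70.1% of all genes) and 10 an H3K27ac peak (55.5%). Of 8 catecholamine genes that act with Th, 6 were open at an end (60.4% of all genes). Acetylated there were 3 (49.3% of all genes): Dbh, Slc18a1 and Slc18a2. Ddc, which encodes the enzyme after Th, had neither mark at an end, and its gene body held 5 ATAC and 4 H3K27ac peaks.

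**Figure D5:**
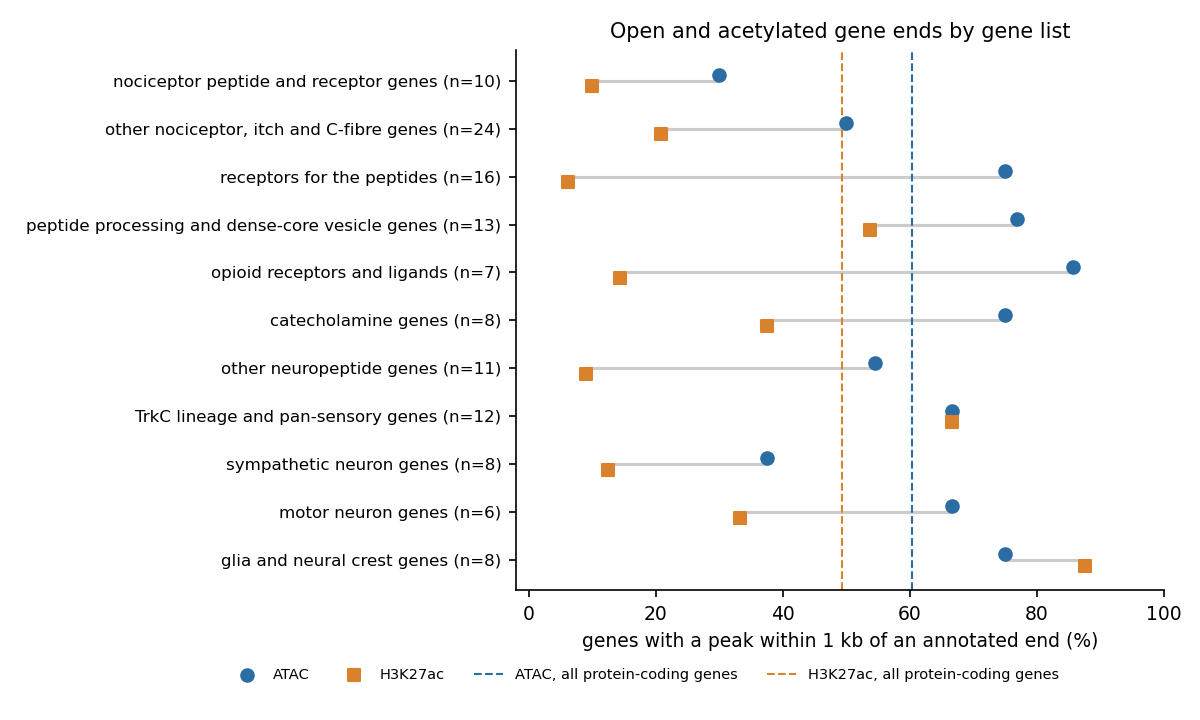
Percent of the genes of each list with an ATAC peak (blue circles) or an H3K27ac peak (orange squares) within 1 kb of an annotated end; dashed lines give all protein-coding genes, 60.4% for ATAC and 49.3% for H3K27ac. The 10 nociceptor peptide and receptor genes lie at 30% and 10%, and the peptide receptors at 75% and 6.25%.

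The label of the cells was checked on lists of markers. At an annotated end, 8 of 12 TrkC lineage and pan-sensory genes were open (60.4% of all genes) and 8 carried H3K27ac (49.3% of all genes). The open share, 66.7%, was near that of all genes. Isl1, Pou4f1, Tlx3, Etv1, Tubb3 and Elavl4 were among those with both marks, and all 12 loci held H3K27ac (63.9% of all genes). Ntrk3, the TrkC gene, and Runx3 were not acetylated at an annotated end, and of these only Runx3 was open there. They had 4 and 3 H3K27ac peaks inside the gene, and the reporter transgene carries a copy of the Runx3 region. Markers of other cells were not all bare. Of 8 glia and neural crest genes, 7 were acetylated at an end, and Sox10 also had 5 H3K27ac peaks in its flanks. Of 8 sympathetic neuron genes, which bear on Th because these neurons express it, 3 were open and only Insm1 was acetylated at an end (60.4% and 49.3% of all genes). Phox2a had no peak in its locus. Of 6 motor neuron genes, which bear on Calca because those neurons express it, 4 were open and 2 acetylated, Slc5a7 and Isl2 (60.4% and 49.3% of all genes). The part of other cells in the peaks at the peptide genes was not tested.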

How the data were processed

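Per the submitters' processing notes, reads were trimmed with cutadapt 1.18 and aligned with Bowtie2 2.3.5.1 to mm10, and MACS2 and bedtools were used, their versions not given in the sources used here. The authors deposited 2 BED lists, 1 consensus per assay, with start and end positions in bp and no score; how the consensus was formed is not given in the sources used here. Input DNA was not used here. Starts were changed to count from 1, and 43652 ATAC and 19924 H3K27ac peaks on the assembled chromosomes were kept. Genes, neighbours and promoter windows are RefSeq GRCm38.p6. A peak counted at a gene end within 1 kb of either end, otherwise as inside or in the flank, and peaks overlapped when they shared 1 bp. Intervals are 95% Wilson intervals. Percentiles give the share of peaks or genes at or below a value. The 10 genes, the 10 other lists (113 entries, all matched, 1 through a synonym) and the positions described were chosen with earlier results of these data known, and no test was made. All 10 genes are named, with their peaks at ends, every H3K27ac peak, every overlapping ATAC peak and the widest ATAC peak, and list members with both marks at an end or where 5 or fewer had or lacked a mark; others named were chosen after their values were seen. Locus and overlap counts were tested on simulated data. Python 3.11.15, pandas 2.3.3 and scipy 1.17.1 were used. Some genes of these lists are counted but not reported here by name.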

Additional observations from a re-analysis of the deposited data

How the results depend on the processing

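No paired analysis was possible because each assay has 1 consensus list and no result comes from a test, and for the same reason no replicate could be left out. Of 23 alternatives, 17 left the value within 1.5 times the main count or, for the share of ATAC peaks with H3K27ac, within its interval. A window of 2.5 kb gave 5 genes with ATAC at an end (Oprm1 and Th added) and 3 with H3K27ac (Th and Adcyap1 added). Both ATAC additions came from narrow peaks inside the gene near its 3′ end, of 98 bp in Oprm1 and 145 bp in Th, and not from the start. The peak in Oprm1 also lies inside the overlapping gene Ipcef1. A window of 0.5 kb gave 0 genes with H3K27ac. Keeping only peaks at or above the median width of their list, 9 ATAC peaks and 1 H3K27ac peak were left in the loci. The other 15 ATAC and 4 H3K27ac peaks were narrower than the median. The Nppb peak of 369 bp was among them, so 0 genes had H3K27ac at an end. The share of ATAC peaks with H3K27ac ranged from 8.70% to 12.5%. Windows at the listed starts and counting by midpoint were chosen after seeing the data; the former gave 4 genes with ATAC (Oprm1 added) and 1 with H3K27ac, Adcyap1 in place of Nppb. Depth is unknown, so the lack of a peak is not the lack of a mark.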
